A study of Mus musculus with 9 samples.

Results

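The genes examined were a set of protein-coding genes from the families that write, read or erase methyl groups on DNA and methyl or acetyl groups on histones. Some members of these families act on other proteins, and other genes with such roles are outside the set. The genes were chosen by symbol in the GENCODE annotation of the mouse genome (mm10) and on autosomes only, and the rule itself uses no measured value. The symbols were Tet, Mbd, Hdac, Sirt, Ezh, Uhrf, Setd, Smyd or Kdm with a number, those beginning with Dnmt or Kmt, and Ehmt1, Ehmt2, Suv39h2, Nsd1, Dot1l, Crebbp, Ep300, Kat2a, Kat2b, Kat6a and Kat6b. This gave 85 of 20807 autosomal protein-coding genes. Each gene was joined to the differentially methylated regions (DMRs) of the study that overlapped its body or the 1000 bp upstream of it by at least 1 bp. In all, 60 of the 12949 DMRs listed fell in 28 of the 85 genes.

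DNA came from the hypothalamus of male C57/Bl6 pups on postnatal day 6. Pups of the modified maternal separation (MMS) group had been taken from the dam and repeatedly turned onto their backs for 1.5 h per day from day 4 to day 6, and controls were untreated male littermates. DNA of 10 animals per group was combined into 3 pools per group, so that a library mixes several animals and all cell types of the tissue. Methylated DNA immunoprecipitation (meDIP) gave 3 control and 3 MMS libraries, beside 2 inputs and 1 IgG control. The values given below are the authors' means of normalised reads over a region in each group, on the log2 scale. The deposited table has no value for a single library, and the depth of the libraries behind a value is not given in it. No error and no test between the groups could therefore be computed for any region, and by the study's methods the table lists regions that had passed an FDR threshold between the groups. A change in methylation and a change in the share of a cell type cannot be told apart in whole tissue.

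In mammals DNA methylation sits mainly on cytosines that are followed by guanine (CpG). Dnmt3a and Dnmt3b set it on unmethylated DNA, Dnmt3l assists them without an active site of its own, and Dnmt1 with Uhrf1 copies it to the new strand after replication. Tet enzymes oxidise methylcytosine, the opening step of its removal, and proteins with a methyl-CpG-binding domain (MBD) include readers of the mark. Histone lysines are methylated by SET-domain enzymes and by Dot1l and demethylated by KDM proteins. Acetyl groups are added by enzymes such as Crebbp and Ep300 and taken off by histone deacetylases and sirtuins.

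The regions that carry the account below are shown by their reference sequence (mm10), with CpG sites in capitals. The antibody enriches methylated cytosine, which sits mainly in CpG. The methyltransferases are shown because all of their regions in the gene or 1000 bp upstream were higher in MMS, Tet1 because its only region was higher in control, and Hdac9 because it held the largest difference in each direction. Kmt5a, Kmt2b and Hdac7 are shown because their regions were centred near an annotated start within the gene. For Dnmt3l the promoter of the RefSeq table (GRCm38.p6) is printed, which lay wholly inside a region. The other windows are the central 150 bases of a region.
Dnmt1 centre, chr9:20940763-20940912, plus strand: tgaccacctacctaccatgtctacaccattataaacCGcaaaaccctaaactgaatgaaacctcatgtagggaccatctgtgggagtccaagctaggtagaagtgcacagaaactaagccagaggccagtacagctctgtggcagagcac
Dnmt1 centre, chr9:20932527-20932676, plus strand: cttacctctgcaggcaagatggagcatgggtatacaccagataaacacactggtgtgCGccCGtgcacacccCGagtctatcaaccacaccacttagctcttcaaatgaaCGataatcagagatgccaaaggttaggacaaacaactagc
Dnmt3a centre, chr12:3893330-3893479, plus strand: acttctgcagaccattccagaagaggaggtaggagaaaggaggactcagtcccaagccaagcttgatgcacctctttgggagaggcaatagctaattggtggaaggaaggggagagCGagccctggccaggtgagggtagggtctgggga
Dnmt3l promoter, chr10:78049592-78049891, plus strand: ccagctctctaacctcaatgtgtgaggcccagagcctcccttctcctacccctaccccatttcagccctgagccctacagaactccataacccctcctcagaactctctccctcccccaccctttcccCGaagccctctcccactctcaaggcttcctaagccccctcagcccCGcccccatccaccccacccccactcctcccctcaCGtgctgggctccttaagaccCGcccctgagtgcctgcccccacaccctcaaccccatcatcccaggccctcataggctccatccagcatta
Tet1 centre, chr10:62837203-62837352, plus strand: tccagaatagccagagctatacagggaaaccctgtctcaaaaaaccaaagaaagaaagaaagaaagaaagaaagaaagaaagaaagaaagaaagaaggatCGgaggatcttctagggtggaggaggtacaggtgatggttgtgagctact
Hdac9 centre, chr12:34818499-34818648, plus strand: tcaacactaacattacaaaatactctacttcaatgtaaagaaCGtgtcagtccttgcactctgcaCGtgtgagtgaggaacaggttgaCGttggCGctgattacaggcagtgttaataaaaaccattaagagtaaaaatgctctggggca
Hdac9 centre, chr12:34755636-34755785, plus strand: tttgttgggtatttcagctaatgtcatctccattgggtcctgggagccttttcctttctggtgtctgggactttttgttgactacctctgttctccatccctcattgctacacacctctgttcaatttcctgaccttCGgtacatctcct
Kmt5a centre, chr5:124450710-124450859, plus strand: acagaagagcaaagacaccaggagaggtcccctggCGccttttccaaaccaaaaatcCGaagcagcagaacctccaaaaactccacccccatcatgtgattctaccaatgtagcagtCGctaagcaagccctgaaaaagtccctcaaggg
Kmt2b centre, chr7:30579339-30579488, plus strand: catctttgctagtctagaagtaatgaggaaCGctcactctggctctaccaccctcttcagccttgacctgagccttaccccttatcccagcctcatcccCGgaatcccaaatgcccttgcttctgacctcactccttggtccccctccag
Hdac7 centre, chr15:97815361-97815510, plus strand: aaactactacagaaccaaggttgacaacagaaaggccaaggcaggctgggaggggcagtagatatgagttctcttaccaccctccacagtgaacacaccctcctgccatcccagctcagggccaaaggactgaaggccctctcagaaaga

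The windows differ in how many CpG sites they hold. There were 4 in the Dnmt1 window within the wider region, 1 in the other Dnmt1 window and 1 in that of Dnmt3a. The Tet1 window had 1 CpG, beside a run of short repeated units. The Hdac9 window that was higher in MMS held 4 and the one that was higher in control held 1. Those of Kmt5a and Kmt2b held 3 and 2, and the central window of Hdac7 held 0, although its whole region had 11.

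A DMR was found in 28 of the 85 genes (32.9%), where 20.1% of all autosomal protein-coding genes had one. Longer genes have more room for a region, and the modifier genes were longer, with a median of 43.6 kb against 17.6 kb. Among genes up to 50 kb, 10 of 45 modifier genes had a DMR, against 10.9% of all genes. Modifier genes of this class were also longer than the class as a whole, with medians of 20.2 and 11.5 kb. Between 50 and 150 kb it was 11 of 33, or 33.3%, against 41.4% of all genes. Of the 7 modifier genes over 150 kb all had a DMR, where 74.0% of such genes did. The share in modifier genes therefore lay above that of all genes in the shortest and the longest class and below it in the middle class. Per length the order was the same, with 1.59 DMRs per 100 kb in modifier genes up to 50 kb against 0.743 in all genes of that class. In the middle class the values were 0.667 and 0.707, and in the longest 0.937 and 0.539. Of the 25 DMRs of modifier genes in the longest class, Smyd3 alone held 14, and the higher rate there rests on that gene. Of the 17 in the shortest class, Dnmt3l, Smyd2 and Setd7 held 3 each. Over the whole length of the genes there were 0.932 DMRs per 100 kb, against 0.640 for all autosomal protein-coding genes, and 0.784 without Smyd3.

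**Figure D1:**
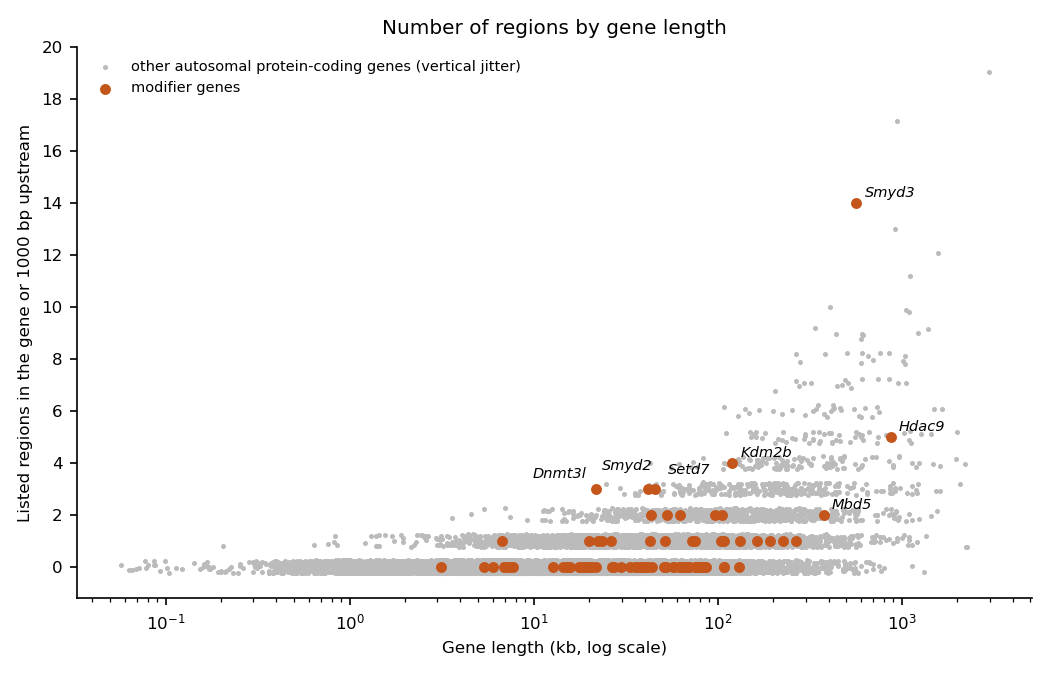
Number of listed regions in each autosomal protein-coding gene (vertical axis) against gene length in kb (log scale), with modifier genes in orange and other genes in grey, spread vertically so that points can be seen. Genes over 20 regions are left off; Smyd3 stands at 14 regions, and Dnmt3l, Smyd2 and Setd7 have 3 each in genes up to 50 kb.

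A region higher in MMS was present in 21 of the 85 genes (24.7%), against 14.2% of all genes. A region higher in control was present in 13 (15.3%), against 9.60%. The former are also called gains and the latter losses below. Both kinds occurred in 6 genes, Smyd3, Hdac9, Kdm2b, Tet3, Sirt1 and Kat2b. Of the 60 regions, 37 were higher in MMS, which is 61.7% (Wilson 95% interval 49.0% to 72.9%, covering the count alone), and 62.4% of all autosomal DMRs were. The interval includes the share of the genome at large. The share was 47.7% without regions in which a group was within 0.5 of its lowest value, and 82.1% with a minimum difference of 2 between the group means. Neither share was computed over all autosomal DMRs, so these shifts cannot be called particular to modifier genes. Among all autosomal DMRs, control was within 0.5 of its lowest value in 52.6% of gains, and MMS of its own in 4.61% of losses. The median differences there were 3.43 in gains and -1.73 in losses.

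**Figure D2:**
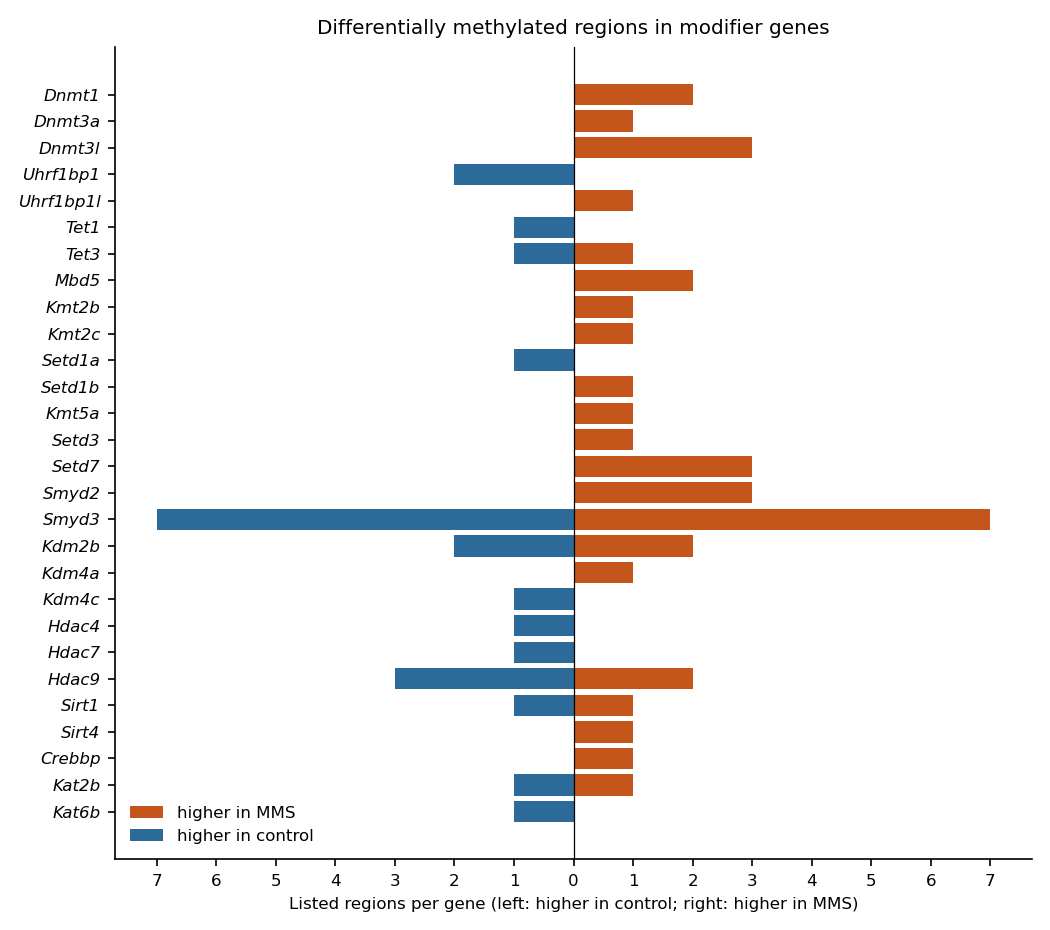
Number of listed regions in each of the 28 modifier genes that had one, ordered by role, with regions higher in MMS to the right and regions higher in control to the left. Smyd3 has 7 on each side, and Dnmt1, Dnmt3a and Dnmt3l have regions on the MMS side alone.

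The regions in DNA methyltransferase genes all had the same direction, within the gene and 1000 bp upstream. Of Dnmt1, Dnmt3a, Dnmt3b, Dnmt3c, Dnmt3l, Uhrf1 and Uhrf2, 3 had a region, where 20.1% of all genes had one. Dnmt1, Dnmt3a and Uhrf2 are in the class of 50 to 150 kb, in which 41.4% of all genes had one. Per length the list had 1.74 regions per 100 kb, against 0.640 for all genes, with 3 of its 6 regions in Dnmt3l. All 6 regions of these methyltransferase genes were higher in MMS, as were 62.4% of all autosomal DMRs. In 5 of these 6 the control mean was -0.17, the lowest control mean in the whole table, and control was within 0.5 of that value in 52.6% of all autosomal gains. For these 5 the size of the difference depends on where that value was set. With 5000 bp upstream counted, Dnmt3l and Dnmt3a gained a further region each that was higher in control, with differences of -1.40 and -1.71, and the directions were then mixed. Dnmt1 had a region in intron 9 on chromosome 9 from 20932284 to 20932921, with a mean of -0.17 in control and 4.12 in MMS and 15 CpG in 638 bp. Its other region lay in intron 4 from 20940759 to 20940918, with -0.17 in control and 3.75 in MMS, and held 1 CpG in 160 bp. The 2 regions of Dnmt1 were thus alike in their group means and unlike in CpG content.

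Dnmt3a had 1 region, in intron 6 on chromosome 12 from 3893295 to 3893516, at -0.17 in control and 3.39 in MMS, with 2 CpG in 222 bp. The mRNA of Dnmt1 and Dnmt3a was also followed by PCR, and the primers are given to place the regions against the amplified exons. For Dnmt1 (forward gctaccagtgcacctttggt, reverse atgatggccctccttcgt) they lie in exons 33 and 34 of the principal transcript. Nearest to them was the intron 9 region, 20.8 kb away. The Dnmt3a primers (forward ggtgcactgaaatggaaagg, reverse gaagaggtggcggatgac) lie in exons 22 and 23, and the region was 13.3 kb from them. No DMR therefore touched the amplified part of either gene.

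Dnmt3l, which stimulates Dnmt3a and Dnmt3b, had 3 regions within 21.7 kb of gene on chromosome 10, all higher in MMS. The region from 78049383 to 78050071 was at -0.17 in control and 3.82 in MMS, with 16 CpG in 689 bp. It was centred 115 bp upstream of the start of a protein-coding transcript that begins inside the gene, and it covered all 300 bases of the RefSeq promoter printed above. That promoter holds 4 CpG, where promoters of the same length in the table had a median of 7 (quartiles 3 and 21), so it is on the CpG-poor side. A second region followed 2162 bp further on, from 78052234 to 78052856, and covered 145 bp of coding sequence in exon 8. Its means were -0.17 in control and 3.72 in MMS. The other, from 78061619 to 78061784 in intron 13, had means of 1.31 and 4.10, the only methyltransferase region with control above its lowest value.

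A DMR overlapped 2 of the 94 RefSeq promoters of modifier genes (2.13%), those of Dnmt3l and Hdac7, and 108 of 31396 in the whole table (0.344%). With 2 promoters behind it, the share in modifier genes rests on single cases, and only 43 of the 300 bases of the Hdac7 promoter were overlapped. The table had promoters for 66 of the 85 genes. No region was centred within 1000 bp upstream and 100 bp downstream of the outermost start of its gene. By any annotated transcript start, 4 regions were centred in such a window, in Dnmt3l, Hdac7, Kmt5a and Kmt2b. This count was not made for DMRs in other genes. In Hdac7, a class IIa deacetylase, the region on chromosome 15 from 97815071 to 97815802 was centred 573 bp upstream of an internal start, with 6.18 in control and 4.79 in MMS. The starts near the Kmt5a and Kmt2b regions belong to transcripts that are annotated as a retained intron and as a processed transcript, not as coding.

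Among genes of DNA demethylation and methyl-CpG binding the directions were mixed. Tet1, on chromosome 10, had 1 region in intron 4 from 62837084 to 62837472, with 5.24 in control and 2.24 in MMS, a difference of -3.00. Repeats made up 63.0% of it. Tet3 had a region higher in MMS from 83430952 to 83431207 on chromosome 6 (1.03 in control, 4.00 in MMS). A second Tet3 region from 83411122 to 83411500 was higher in control (5.35 in control, 3.68 in MMS). Both lie in intron 3, with 19451 bp between them, so that neighbouring parts of a single intron differed in opposite directions. Tet2 had no DMR.

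Of the 8 MBD genes, 1 had a region, where 20.1% of all genes had one. It was Mbd5, linked to neurodevelopmental disorders, whose 375.9 kb put it in the class over 150 kb in which 74.0% of all genes had one. Mbd5 had a region from 49008772 to 49008934 in intron 2 and another from 49287328 to 49287937 in intron 12, on chromosome 2. Control was at -0.17 in both, and the MMS means were 3.45 and 3.46. Each held 1 CpG, in 163 and 610 bp. Mbd1, Mbd2, Mbd3, Mbd3l1, Mbd3l2, Mbd4 and Mbd6 had none. Uhrf1bp1 and Uhrf1bp1l met the rule by symbol, although the proteins they encode are known for lipid transfer and not for a role on chromatin. Uhrf1bp1 had 2 neighbouring regions in intron 1 on chromosome 17, and both were higher in control. From 27870021 to 27870368 the MMS mean was 0.96 against a control mean of 3.60. After a gap of 935 bp, from 27871304 to 27871667, the MMS mean was 1.52 and the control mean 3.75. Uhrf1bp1l had 1 in intron 1 on chromosome 10, from 89762408 to 89762591, with a control mean of 1.19 and an MMS mean of 4.00.

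**Figure D3:**
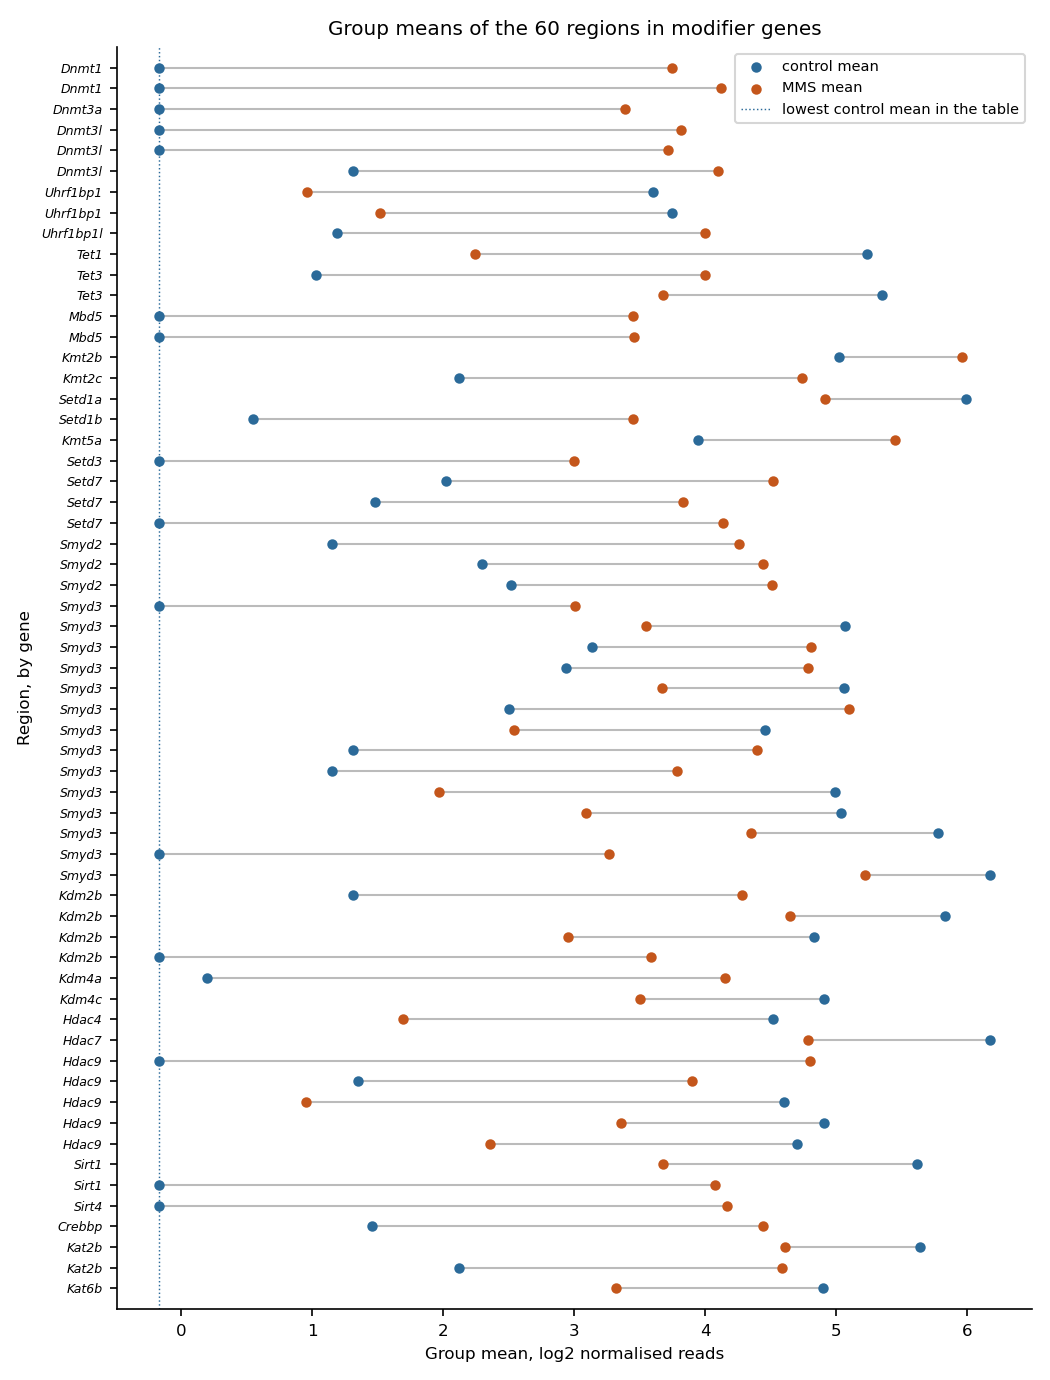
Authors' group means of each of the 60 regions, in log2 normalised reads, control in blue and MMS in orange, joined by a line and ordered by role, gene and position; the dotted line marks the lowest control mean in the table, -0.17. There are no error bars, because values per library were not in the table. All 6 methyltransferase regions have the MMS mean on the right, with the control mean on the dotted line in 5.

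Of the KMT2 and SETD1 enzymes, which methylate lysine 4 of histone H3, Kmt2b, Kmt2c, Setd1a and Setd1b had 1 region each and Kmt2a, Kmt2d and Kmt2e had none. That is 4 of 7 genes, where 20.1% of all genes had a region, but per length the 0.815 regions per 100 kb lay near the 0.640 of all genes. All 4 overlapped coding sequence, a share that was not computed over all DMRs. In Kmt2b, on chromosome 7, the region from 30578937 to 30579891 covered 238 bp of exons 18 to 20 and had means of 5.02 in control and 5.96 in MMS. Its difference of 0.94 was the smallest among the modifier regions, at the highest MMS mean among them. In Setd1a, also on chromosome 7, the region from 127786717 to 127788728 was the widest of all 60 at 2012 bp and covered 511 bp of exons 9 to 12. It was higher in control, with 5.99 against 4.92 in MMS, and it is also assigned to the overlapping gene Gm49388.

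The Kmt2c region, on chromosome 5 from 25312964 to 25313470, covered 215 bp of exon 37 and had means of 2.12 in control and 4.74 in MMS. That of Setd1b, on the same chromosome from 123159768 to 123159948, reached 79 bp into exon 12, with 0.55 in control and 3.45 in MMS. Over all modifier genes, 12 regions overlapped an exon of the principal transcript and 9 of them coding sequence, while 50 regions were centred in an intron. The same counts were not made for DMRs in other genes, so these do not set the modifier genes apart.

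The 5 genes for lysines 9 and 27 of histone H3 (Ehmt1, Ehmt2, Suv39h2, Ezh1 and Ezh2) held 0 regions in 270.0 kb. Of Nsd1, Setd2, Dot1l, Kmt5a, Kmt5b and Kmt5c, 1 had a region, at 0.311 per 100 kb over the 6 genes. Against the 0.640 per 100 kb of all genes, counts this small do not set either list apart. Kmt5a, which places the single methyl group on lysine 20 of histone H4, had a region of 1939 bp on chromosome 5 from 124449816 to 124451754, over exons 4 and 5. Its means were 3.95 in control and 5.45 in MMS, and its 39 CpG were the most in any modifier region.

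Setd7, which methylates lysine 4 of histone H3 and several other proteins, had 3 regions on chromosome 3, all higher in MMS. They lay close together near the end of the gene. From 51525620 to 51526312 the means were 2.02 in control and 4.52 in MMS. From 51522890 to 51523264 they were 1.48 and 3.83, and both of these regions are in intron 7. The region from 51518586 to 51519192 was contained in the non-coding part of exon 8, the 3′ UTR, with -0.17 in control and 4.14 in MMS, so that gains followed each other over the end of the gene at gaps of 2355 and 3697 bp. Setd3, an enzyme that methylates a histidine of actin, had 1 region in intron 6 on chromosome 12, from 108126039 to 108126252. It had -0.17 in control and 3.00 in MMS and was the only modifier region without a CpG in the reference. Over Setd3 to Setd7 there were 4 regions, at 1.79 per 100 kb against 0.640 for all genes, with 3 of them in Setd7.

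Smyd3, a lysine methyltransferase of 566.1 kb on chromosome 1, held 14 regions, the most of any modifier gene. By this count it was the 4th of all autosomal protein-coding genes, and at 2.47 per 100 kb it was the densest of the 10 genes with 10 or more regions, next to Slc39a11 at 2.46. It had 7 regions in each direction, where the share higher in MMS was between 35.3% and 70.0% in those 10 genes. The 7 that were higher in MMS had control means from -0.17 to 3.14 and MMS means from 3.01 to 5.10. The 7 that were higher in control had control means from 4.46 to 6.18 and MMS means from 1.97 to 5.22. Control means of the 2 sets did not overlap, whereas their MMS means did, in sets that were split by the sign of the difference itself. Over all autosomal DMRs the median control mean was 0.20 in gains and 5.13 in losses. The median MMS mean was 4.10 in gains and 3.335 in losses, so the pattern is not particular to Smyd3.

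Gains and losses were interspersed along Smyd3. Of 13 pairs of neighbouring regions, 9 pointed in opposite directions and 4 in the same one, with 3 losses in a row within intron 5. Intron 5 of the principal transcript held 10 of the 14 regions, and with 310.9 kb it makes up 54.9% of the gene. The region closest to the gene start, 5.99 kb into it from 179511734 to 179512370, was at -0.17 in control and 3.01 in MMS. The largest gain, from 179091269 to 179091542 in intron 7, had -0.17 in control and 3.27 in MMS and 2 CpG in 274 bp. Losses were largest from 179167432 to 179168209, with 4.99 in control and 1.97 in MMS and 10 CpG in 778 bp. A gain from 179298112 to 179299032, with 2.50 in control and 5.10 in MMS, lay 4403 bp from a loss. That loss, from 179303436 to 179303633, had 5.06 in control and 3.67 in MMS. None of the 14 overlapped an exon.

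Smyd2, a related lysine methyltransferase on the same chromosome, was uniform. Its 3 regions were all higher in MMS, at control means of 1.15, 2.30 and 2.52 and MMS means of 4.26, 4.44 and 4.51. None of these control means was near the lowest value. They lay from 189915051 to 189915967 in intron 1, from 189893137 to 189893568 in intron 5 and from 189890332 to 189891634 over 68 bp of exon 6. Smyd1, Smyd4 and Smyd5 had no region. Over the 5 SMYD genes there were 2.14 regions per 100 kb, against 0.640 for all genes, with 14 of the 17 in Smyd3. Along the 6 modifier genes with 3 or more regions, Smyd2, Setd7 and Dnmt3l (the last not with 5000 bp upstream) had all of them higher in MMS and Smyd3, Hdac9 and Kdm2b were mixed. Of 528 genes in the genome with 3 or more, 18.8% had all higher in MMS and 77.3% were mixed. The 3 uniform genes are also the only modifier genes up to 50 kb with 3 or more regions, a count that 0.131% of all genes up to 50 kb reached. This last comparison was chosen after the values had been seen.

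**Figure D4:**
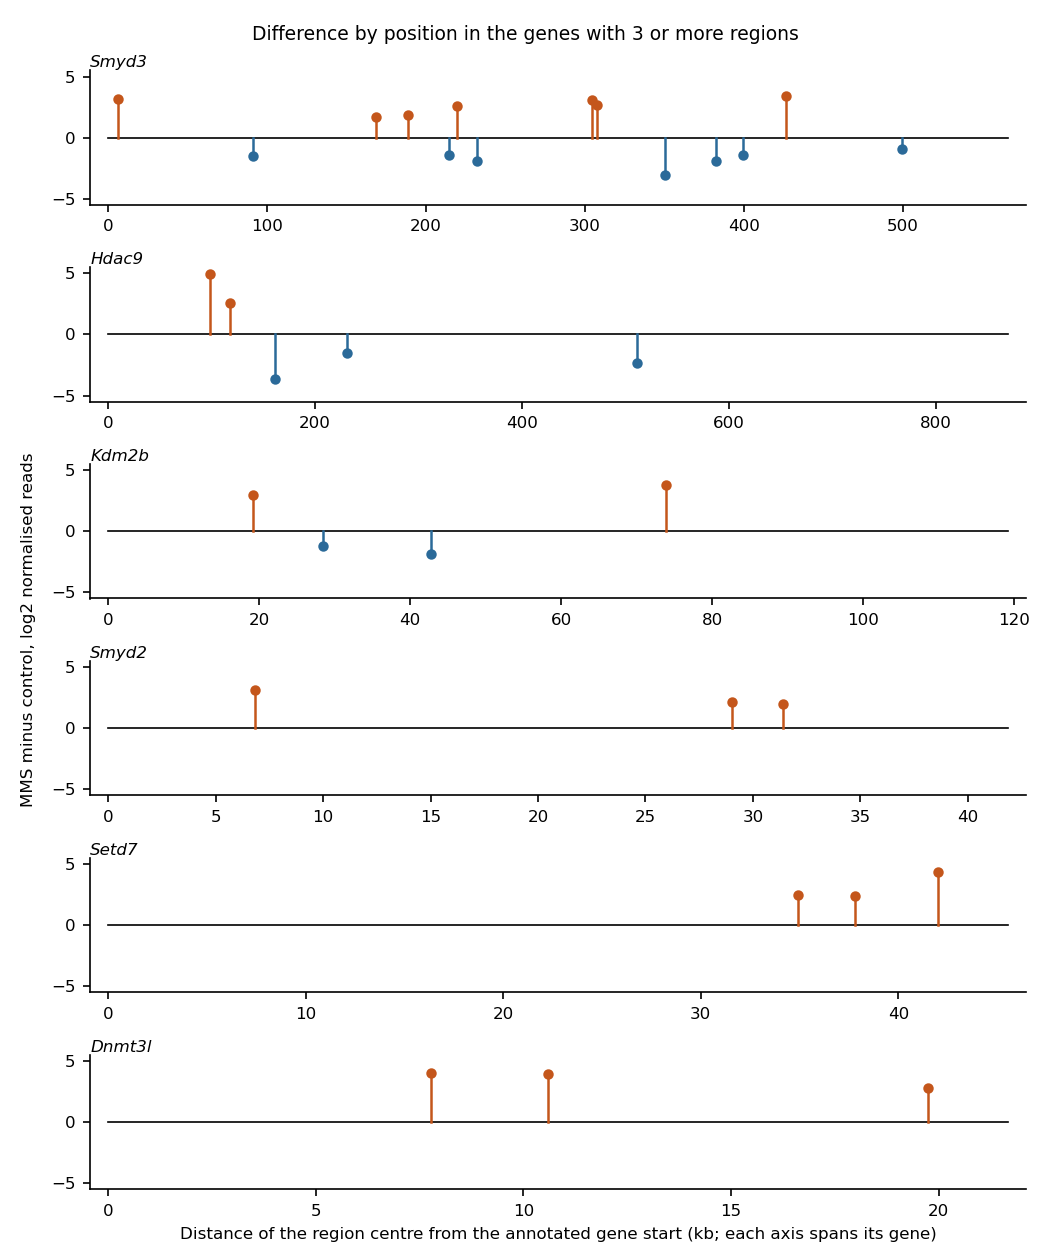
Difference between the group means (MMS minus control, log2 normalised reads) for each region against the distance of its centre from the annotated start in kb, in the 6 modifier genes with 3 or more regions; the black line is the gene, orange marks regions higher in MMS and blue those higher in control. Smyd3 has gains and losses interspersed over its length, Hdac9 has its 2 gains nearest to the start, and Smyd2, Setd7 and Dnmt3l have gains alone.

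Lysine demethylases had 6 regions in 3 of 15 genes, a share at the 20.1% of all genes, with 0.602 regions per 100 kb against 0.640. Of the 6, 3 were in each direction. Kdm2b, which binds unmethylated CpG islands and recruits a Polycomb complex, had 4 of them on chromosome 5. Moving into the gene from its start, the differences were 2.97, -1.18, -1.88 and 3.76. The outer pair, from 122970402 to 122970973 (1.31 in control, 4.28 in MMS) and from 122915762 to 122916120 (-0.17 and 3.59), was higher in MMS. The inner pair, from 122960972 to 122961657 (5.83 and 4.65) and from 122946970 to 122947136 (4.83 and 2.95), was higher in control. The region with 5.83 in control covered 286 bp of coding sequence in exons 5 and 6 and held 22 CpG.

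Kdm4a and Kdm4c remove methyl groups from lysines 9 and 36 of histone H3 and had 1 region each, in opposite directions. That of Kdm4a on chromosome 4, from 118172895 to 118173368 in intron 3, was at 0.20 in control and 4.15 in MMS and had the highest CpG density of the 60 regions, at 4.22 per 100 bp. That of Kdm4c, from 74270691 to 74270864 on the same chromosome, was at 4.91 in control and 3.50 in MMS, and 81.6% of it was repeat sequence. The other 12 demethylase genes had no DMR.

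Histone deacetylases of class I, Hdac1, Hdac2 and Hdac3, had 0 regions in 76.1 kb of gene, where all genes had 0.640 per 100 kb, and a count of 0 in so short a length does not set them apart. Of the class II and IV genes, Hdac4, Hdac7 and Hdac9 had regions and Hdac5, Hdac10 and Hdac11 had none, at 0.558 per 100 kb over the 6 genes. Together the 3 had 5 regions higher in control and 2 higher in MMS, where 62.4% of all autosomal DMRs were higher in MMS. Of these 7 regions, 5 were in Hdac9. Hdac9, on chromosome 12, was the longest modifier gene at 869.5 kb. The 2 regions closest to its start were higher in MMS and the 3 further in were higher in control. From 34818158 to 34818990, 98.5 kb into the gene, the means were -0.17 in control and 4.80 in MMS, and this difference of 4.97 was the largest in any modifier gene. From 34799317 to 34800110 they were 1.35 and 3.90.

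The largest loss among modifier genes was also in Hdac9, from 34755634 to 34755789, with 4.60 in control and 0.95 in MMS. It is 156 bp wide, the narrowest region of the 60, with 1 CpG, and 85.3% of it was repeat sequence. The other losses had 4.91 in control and 3.36 in MMS (34686299 to 34686670) and 4.70 and 2.36 (34405545 to 34405855). Of these 5 regions, 4 lie before the start of the principal transcript but inside the annotated gene. Hdac4 had a region on chromosome 1 from 91928617 to 91928944 that straddled the end of the gene, with 166 of its 328 bp in the 3′ UTR. Its means were 4.52 in control and 1.69 in MMS, and it held 11 CpG.

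Sirtuins are deacetylases that depend on NAD, and 2 of 7 had a region, where 20.1% of all genes had one. Their 3 regions came to 1.88 per 100 kb, against 0.640 for all genes. In Sirt1, on chromosome 10, the region from 63367049 to 63367833 in intron 1 was higher in control (5.62 against 3.68 in MMS). The region from 63321499 to 63321721 in the last intron was higher in MMS (-0.17 in control, 4.08 in MMS). Sirt4 encodes a mitochondrial sirtuin. Its region, on chromosome 5 from 115485712 to 115486675, began 986 bp before the gene, so that only 14 of its 964 bp met the limit of 1000 bp. It had -0.17 in control and 4.17 in MMS, with 26 CpG.

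Of the acetyltransferases, Crebbp, Kat2b and Kat6b had regions and Ep300, Kat2a and Kat6a did not. That is 3 of 6, against 20.1% of all genes, but per length the 0.674 regions per 100 kb lay near the 0.640 of all genes. Crebbp, a coactivator that acetylates lysine 27 of histone H3, had a region in intron 1 on chromosome 16 from 4185457 to 4185718, with 1.46 in control and 4.44 in MMS. Kat2b had a region from 53665415 to 53666292 on chromosome 17 that covered exons 15 to 17 and was higher in MMS (2.12 in control, 4.59 in MMS). Its other region, from 53633937 to 53634155 in intron 5, was higher in control (5.64 and 4.61) and was 79.5% repeat. Kat6b had a region from 21495079 to 21495855 on chromosome 14 that was higher in control (4.90 and 3.32) and lay before the start of its principal transcript.

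Gains and losses among the 60 regions differed in where the lower group stood. In the 37 regions higher in MMS the median difference was 2.98, with a median of 1.15 in control and 4.12 in MMS. Over all autosomal DMRs higher in MMS the median difference was 3.43. In the 23 regions higher in control the medians were 5.04 in control and 3.36 in MMS, and the median difference of -1.67 was near the -1.73 of all such autosomal DMRs. Control was within 0.5 of its lowest value in 16 of the 37 gains (43.2%, Wilson 95% interval 28.7% to 59.1%, covering the count alone), and in 52.6% of all autosomal gains. MMS was within 0.5 of its own lowest value, -0.24, in 0 of the 23 losses, and in 4.61% of all autosomal losses. Every loss in a modifier gene thus kept an MMS mean of at least 0.95.

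The median width and repeat content of gains and losses were not the same in the modifier genes. The median width was 488 bp, against 562 bp for DMRs in autosomal protein-coding genes. It was 572 bp for gains and 379 bp for losses, where DMRs in all autosomal protein-coding genes had medians of 528 and 611 bp. The median CpG density was 1.61 per 100 bp, against 1.43 in those DMRs. Of the 60 regions, 10 held 20 or more CpG and 7 held 1 or 0. Repeats made up a median of 11.2% of a gained region and 25.6% of a lost one, where the medians over DMRs in all autosomal protein-coding genes were 16.1% and 16.8%. These are descriptions over 37 and 23 regions, and no test was made on them.

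Further genes of the same pathways, 57 in all and with a median length of 38.9 kb, were read against the same background. A DMR was found in 22 of them (38.6%), against 20.1% of all genes and 32.9% of the modifier genes. Of their 38 DMRs 29 were higher in MMS (76.3%), against 62.4% of all autosomal DMRs and 61.7% in the modifier genes, and this difference was not tested. Among other histone methyltransferases 9 of 19 had a DMR. Prdm16, a regulator of brown fat and of neural stem cells, had the most with 7 in 320.7 kb, of which 6 were higher in MMS, 5 of these from a control mean of -0.17. Mecom, its close relative, had 4, all higher in MMS, by 2.18 to 4.76. Zbtb38, which binds methylated CpG, had 2 higher in MMS (by 1.49 and 2.86) and 1 higher in control (4.70 in control, 2.73 in MMS). In 18 Polycomb and corepressor genes 6 had a DMR, as did 2 of 8 other DNA methylation genes, 3 of 7 other acetyltransferases and 2 of 5 other demethylases.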

How the data were processed

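meDIP libraries of hypothalamic DNA (3 control and 3 MMS pools, 2 inputs, 1 IgG control) were assigned to groups by their titles. The authors mapped reads to mm10 in Torrent Suite. Broad peaks over the inputs came from MACS2 (2.1 in the submitters' processing notes) under its human genome size setting, and DiffBind with DESeq2 compared the groups. The deposited values used here are normalised reads on the log2 scale, averaged by the authors within control, within MMS and across the 6 libraries. The columns named untreated and treated were read as control and MMS. The deposited table also holds the authors' fold change, p-value and FDR, which were not used. It lists differential regions alone, so regions that did not differ were not analysed here.

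Differences were computed as MMS minus control from the deposited log2 group means. The mean over all libraries matched the mean of the 2 group means within 0.02 on the log2 scale in all 12949 regions, and 0 regions lay outside the chromosomes of GRCm38.p6. Genes, transcripts and exons came from GENCODE vM21. The principal transcript was the coding one of top APPRIS rank, or the longest coding one in the basic set where none had it. CpG sites and the share of soft-masked bases (repeats) were read from that genome. Overlap counting was checked on 200 simulated regions, all counted as placed. Scripts ran in Python 3.11.15 with pandas 2.3.3, numpy 2.4.6, pysam 0.24.0, matplotlib 3.10.9 and scipy 1.17.1.

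The genes and lists were chosen with earlier results of these data known. Dnmt3c was added to the methyltransferase list by its symbol after the annotation was read, and Kdm5d was dropped, being on chromosome Y. Every gene with a region is named. Positions and means are given for genes with 3 or more regions (the largest differences in each direction, and ranges for the rest of Smyd3), the DNA methylation genes, regions at a promoter and the largest difference of each role. Other regions were added after their values had been seen. Wilson intervals cover the count of regions alone. Alternatives changed the overlap, the gene window, the regions used, the members and the limit for the lowest value.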

Additional observations from a re-analysis of the deposited data

How the results depend on the processing

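The 10 results on the modifier and related genes were recomputed under up to 10 alternatives, 80 values in all, of which 73 stayed within the interval or within 1.5 times the value reported and 0 changed sign. The other 7 came from 2 alternatives that remove regions by their group means. With a minimum difference of 2 between the group means, 39 regions were left, at 0.606 per 100 kb, with 82.1% higher in MMS and a median difference of -2.83 in those higher in control. With regions left out where either group was within 0.5 of its lowest value, 47.7% of the remaining 44 were higher in MMS, the median difference of those higher in MMS was 2.60, and the share of gains with control near its lowest value was 0 by construction. The division between gains and losses thus depends on these regions. Neither share was computed over all autosomal DMRs, so this dependence cannot be called particular to modifier genes. With 5000 bp upstream in place of 1000 bp, 29 genes and 64 regions were counted, and the added regions were those of Sirt1 and Ehmt2 (higher in MMS by 3.17 and 2.70) and of Dnmt3l and Dnmt3a (differences of -1.40 and -1.71). No paired analysis was possible because the table holds group means alone and no result comes from a test; for the same reason no replicate could be left out, and depth per library could not be weighed.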
